A study of Mus musculus with 2 samples.

Results

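The 10 genes of MHC class II presentation described here were *H2-Aa*, *H2-Ab1*, *H2-Eb1*, *Cd74*, *H2-DMa*, *H2-DMb1*, *H2-DMb2*, *H2-Oa*, *H2-Ob* and *Ciita*. They were taken by name from the 18049 genes listed for both libraries, and all 10 were found. MHC class II is the surface molecule with which dendritic cells (DCs) show peptides to CD4+ T cells. An α and a β chain (in mice I-A, from *H2-Aa* and *H2-Ab1*, and I-E, whose β chain comes from *H2-Eb1*) assemble on the invariant chain CD74, which fills the peptide groove. In endosomes H2-DM removes the remnant of CD74 and lets peptides bind, and H2-DO restrains H2-DM. CIITA, the product of *Ciita*, is the coactivator that switches this gene group on. DCs that mature and migrate to lymph nodes are known to shut down synthesis of new class II molecules while they keep the assembled ones on the surface for long.

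Each of 2 libraries held live MHCIIhi CD11c+ B220- cells, sorted with flow cytometry and profiled by CITE-seq, which reads mRNA and 12 DNA-barcoded antibodies in the same cell. The naive library came from unimmunized B6 mice and, by the study's methods, from pooled skin-draining lymph nodes. The papain library came from B6 mice given 5 µg ovalbumin (OVA) with 50 µg papain, a protease allergen, in the rear footpads, and by the same methods from popliteal lymph nodes taken on day 1. The labels, in contrast, give skin-draining lymph node as the tissue of both libraries and name popliteal nodes for both in the protocol of the sort. By the methods' account the lymph node site differs along with immunization, and these cannot be told apart. The number of mice is not given in the sources used here, and with 1 library per condition no difference has a replicate check and no p-value is given. The sort itself selected on MHC class II staining, so it sets part of the level of the protein, and possibly of the mRNA.

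The naive library held 3471 cells with mRNA values and the papain library 7596, of which 3042 and 7306 carried an antibody class assigned by the authors. A cell held a median of 13764 unique molecular identifiers (UMIs) in naive and 14738 in papain cells, and the medians of the classes lay between 10768 and 18290. The classes were cDC2s with low, intermediate and high CD301b (CD301blo, CD301bint and CD301bhi), cDC1s and Langerhans cells (LCs). The mRNA of cDC1s and LCs followed their names. *Xcr1*, a cDC1 receptor, was highest in cDC1s in both libraries (16.9 and 9.4 CPM), and *Cd207*, which encodes langerin, was highest in LCs (45.7 and 58.9 CPM). The CD301b steps of the cDC2s rest on the antibody, and *Mgl2*, which encodes CD301b, did not follow them, at 15.2 CPM in CD301blo, 59.1 in CD301bint and 56.1 in CD301bhi cDC2s of the naive library and 0.831, 0.476 and 1.21 CPM in those of the papain library. The migratory DC markers *Ccr7*, *Fscn1*, *Cd40* and *Ccl22* were all present in every class, at a summed 5565 to 8977 CPM in naive and 6475 to 10171 CPM in papain cells. Levels are given as CPM, the UMIs of a gene scaled to 1e+06 UMIs of the group. Intervals are 95% exact Poisson intervals that cover counting error only, and the 2 libraries shared 2 cell barcodes.

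Most of the promoters at hand shared an element. Of 8 members on chromosome 17 (GRCm38.p6, which is mm10), the outermost were *H2-Oa* at chr17:34092379-34095234 and *H2-Eb1* at chr17:34305867-34316674. RefSeq promoter windows of 300 bases, 250 before and 50 after a start site, were at hand for 7 members. Those of *H2-DMa* (beginning at 34122582 and 34125268) and *H2-DMb2* (at 34144999) lay inside the gene's span, which begins at 34119693 and 34143229. The bases at the outer starts of these 2 genes were not searched. TGATTGG, the core of the Y box that NF-Y binds, was searched on both strands and lay in 6 of the 7 members, against 7.82% of all 32851 windows. ACNGATG, the end of the X box that RFX factors bind, lay in 5 of the 7 members (on the reverse strand in *H2-Aa*) and in 9.85% of all windows. The 60 bases around the Y motif are shown for these 6 genes because CIITA, whose gene is itself a member, is known to act through the X and Y boxes of class II promoters. Capitals mark TGATTGG and, where it lies upstream in the stretch, ACNGATG.
*H2-Aa* (chr17:34287854-34287913, minus strand): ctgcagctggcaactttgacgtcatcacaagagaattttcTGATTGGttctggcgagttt
*H2-Eb1* (chr17:34305766-34305825, plus strand): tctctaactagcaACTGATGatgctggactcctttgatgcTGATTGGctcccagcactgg
*H2-DMb1* (chr17:34153088-34153147, plus strand): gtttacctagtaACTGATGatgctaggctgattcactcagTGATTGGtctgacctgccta
*H2-DMb2* (chr17:34145117-34145176, plus strand): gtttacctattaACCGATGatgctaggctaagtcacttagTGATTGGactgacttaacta
*H2-Oa* (chr17:34092294-34092353, plus strand): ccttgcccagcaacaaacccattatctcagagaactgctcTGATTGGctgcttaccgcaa
*H2-Ob* (chr17:34238806-34238865, plus strand): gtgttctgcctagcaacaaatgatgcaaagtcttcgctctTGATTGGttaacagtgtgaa
In *H2-Eb1* the start of ACNGATG lay 27 bases before the start of TGATTGG, and in *H2-DMb1* and *H2-DMb2* 28 bases. The stretches of *H2-DMb1* and *H2-DMb2*, 2 neighbouring genes for H2-DM β chains, were identical at 51 of 60 positions. Transcripts of these 2 genes are alike as well, so the authors' counting could have split reads between them, and their separate levels are uncertain. Neither window of *H2-DMa* held TGATTGG, which says only that these letters are not in those windows.

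In both libraries the CD301blo cDC2s had the highest level of every one of the 10 genes, and LCs the lowest of most. In the naive library the first place of CD301blo cDC2s rested in part on the cells of 1 mRNA cluster, 1.5, described further on. Without that cluster, an alternative chosen after the data were seen, they were first for 6 of the 10 members. CD301bhi cDC2s were then first for *H2-Aa* (2320 against 2189 CPM) and *Cd74* (7217 against 5827 CPM). The cDC1s were then first for *H2-DMb1* (31.7 against 29.2 CPM) and *H2-Ob* (11.1 against 3.14 CPM). For *H2-Eb1*, *H2-DMa*, *H2-DMb1* and *H2-Oa* the counting intervals of the first and the next class then overlapped, so these places are not settled. The members together made up 2.37% of all UMIs in naive CD301blo cDC2s and 0.498% in naive LCs. In the papain library the share in LCs was 0.369%. Within the naive library all 10 members were at least 1.5-fold higher in CD301blo cDC2s than in the pooled other classes (background 6.31% of genes higher by this measure). In naive LCs all 10 were at least 1.5-fold lower (background 11.1%). Folds are ratios of CPM + 1, and the background is the share of all genes reaching 10 CPM on the higher side that passed the same fold. Within the papain library all 9 members reaching 10 CPM were higher in CD301blo cDC2s (background 2.76%), and all 8 were lower in LCs (background 5.42%). CD301bint cDC2s had no member past the fold in either direction in naive cells (background 1.49% higher and 2.54% lower) or in papain cells (0.0569% and 0.626%). CD301bhi cDC2s had 2 of 10 lower members in naive cells (background 5.88%) and 5 of 8 in papain cells (1.61%). In cDC1s 7 of 10 were lower in naive cells (background 14.9%) and 5 of 8 in papain cells (15.7%), where *H2-Ob*, with 6 UMIs, was higher (background 8.71%, although it did not reach 10 CPM). Without cluster 1.5 these counts changed in the naive library. In CD301blo cDC2s 3 of the 9 members reaching 10 CPM were then higher (*H2-DMb2*, *H2-Oa* and *Ciita*; background 2.77%), and in LCs 6 of 9 were lower (background 9.42%). In cDC1s 2 of 10 were then lower (*H2-Ab1* and *Ciita*; background 12.5%) and 3 higher (*H2-DMb1*, *H2-Oa* and *H2-Ob*; background 10.1%). The clusters and classes are the authors' own, and the antibody classes rest on antibody values, MHC_II among them, and not on mRNA.

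The chains of the molecule itself followed this order. *H2-Aa*, the I-A α chain, stood in naive cells at 4531 CPM in CD301blo, 3051 in CD301bint and 2905 in CD301bhi cDC2s, 2050 in cDC1s and 960 in LCs. In papain cells *H2-Aa* stood at 3049 CPM in CD301blo cDC2s, 1509 in cDC1s, 1393 in CD301bint and 1205 in CD301bhi cDC2s and 532 in LCs. None of the counting intervals of neighbours in these orders overlapped. Thus cDC1s were next to last in the naive and next to the top in the papain library for this chain.

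With all cells, *H2-Ab1*, the I-A β chain, differed more between classes than its partner. It stood in naive cells at 3498, 1896, 1585, 556 and 442 CPM in CD301blo, CD301bint and CD301bhi cDC2s, cDC1s and LCs, and in papain cells at 1516, 510, 393, 194 and 180 CPM. The highest class was 7.91-fold above the lowest in naive and 8.41-fold in papain cells. Only cDC1s and LCs of the papain library had overlapping intervals. Without cluster 1.5, naive *H2-Ab1* lay between 442 CPM in LCs and 1036 in CD301blo cDC2s. Naive *H2-Aa* then lay between 960 CPM in LCs and 2320 in CD301bhi cDC2s, a span no smaller than that of *H2-Ab1*. The UMI ratio of *H2-Aa* to *H2-Ab1*, read only between groups, was 1.30 in naive CD301blo cDC2s, 2.17 in LCs and 3.69 in cDC1s. In papain cells it was 2.01, 2.95 and 7.76 in the same classes, so cDC1s had the highest ratio in both libraries. With all cells, every class had a higher ratio in papain than in naive cells. In CD301blo cDC2s this was not so when all papain cells were kept and the naive cells of cluster 1.5 left out. Without them *H2-Aa* stood there at 2189 and *H2-Ab1* at 1036 CPM in naive cells, a ratio slightly above the papain 2.01.

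*H2-Eb1*, the I-E β chain, stood in naive cells at 4353, 2722, 2431, 1657 and 733 CPM in the same order of classes. In papain cells it stood at 2816 CPM in CD301blo and 1200 in CD301bint cDC2s, 1016 in both CD301bhi cDC2s and cDC1s, and 450.5 in LCs. C57BL/6 mice make no I-E α chain, so this mRNA marks the gene's activity and not a surface molecule. *Cd74*, the invariant chain, stood at 10635, 8268, 8477, 4498 and 2765 CPM in naive and 7324, 4542, 4185, 3014 and 2501 CPM in papain cells. With all cells, it had the smallest span of the 10 genes, 3.85-fold between classes in naive and 2.93-fold in papain cells. In the naive library this place rested on cluster 1.5. Without that cluster *Cd74* lay between 2765 CPM in LCs and 7217 in CD301bhi cDC2s. *H2-DMb1* then had the smallest span, between 17.7 CPM in CD301bhi cDC2s and 31.7 in cDC1s. The spans of *H2-Aa*, *H2-Ab1* and *H2-DMb2* were then also smaller than that of *Cd74*. UMIs of *Cd74* were found in 96.8% to 99.9% of the cells of every class and library.

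The genes of the peptide editor H2-DM were lower in all classes but ordered alike, except for the lower places in the papain library. *H2-DMa* stood in naive cells at 251, 139, 101, 59.8 and 20.51 CPM in CD301blo, CD301bint and CD301bhi cDC2s, cDC1s and LCs, and in papain cells at 106, 36.9, 25.7, 18.6 and 11.6 CPM. *H2-DMb1* stood at 99.4, 54.2, 41.6, 31.7 and 18.8 CPM in naive and 44.5, 16.1, 10.4, 7.81 and 10.7 CPM in papain cells. *H2-DMb2* stood at 125, 57.2, 39.2, 16.9 and 16.2 CPM in naive and 70.9, 14.6, 8.52, 4.23 and 4.52 CPM in papain cells. For *H2-DMb2* the intervals of cDC1s and LCs overlapped in both libraries, and for *H2-DMb1* in papain cells the intervals of LCs and CD301bhi cDC2s, and of CD301bhi cDC2s and cDC1s, overlapped. LCs were the only class in which *H2-DMa* had fewer UMIs than the 2 β chain genes together in both libraries (ratios of 0.586 and 0.761), while in the other classes the ratio lay between 0.923 and 1.54.

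**Figure D1:**
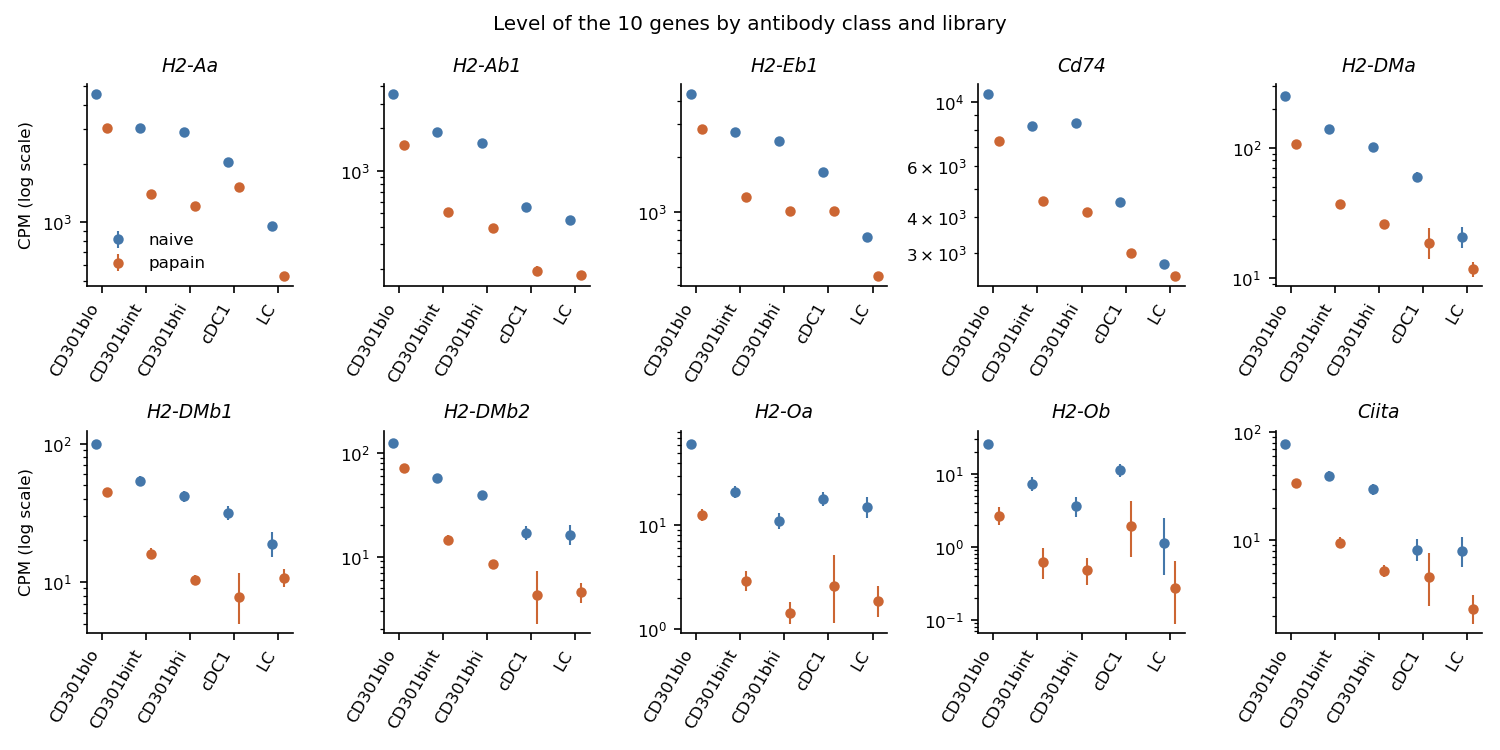
Level of each of the 10 genes (CPM, log scale, a scale of its own in each panel) in the 5 antibody classes of the naive (blue) and the papain (orange) library, with 95% exact Poisson intervals of the counts. CD301blo cDC2s were highest for every gene in both libraries, and each orange point lies below the blue point of its class.

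H2-DO, the inhibitor of H2-DM, was represented by few UMIs in all classes. *H2-Oa* stood in naive cells at 61.8 CPM in CD301blo, 21.0 in CD301bint and 11.1 in CD301bhi cDC2s, 18.0 in cDC1s and 15.1 in LCs, and in papain cells at 12.6, 2.93, 1.42, 2.60 and 1.85 CPM. Only the first place of CD301blo cDC2s was separated from its neighbour in both libraries. Without cluster 1.5, the naive interval of CD301blo cDC2s (16.5 to 23.4) overlapped that of cDC1s (15.4 to 20.9). *H2-Ob* stood in naive cells at 25.3, 7.26, 3.59, 11.1 and 1.13 CPM, which put cDC1s next to the top with an interval (9.05 to 13.4) that overlapped that of CD301bint cDC2s. In papain cells *H2-Ob* lay between 0.272 CPM in LCs (5 UMIs) and 2.66 CPM in CD301blo cDC2s (48 UMIs), and all neighbouring intervals overlapped.

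Few cells held these transcripts. UMIs of *H2-Oa* were found in 27.8% of naive (95% exact Clopper-Pearson interval 24.4 to 31.4) and 9.80% of papain CD301blo cDC2s (8.32 to 11.4), and in 10.6% to 18.3% and 2.21% to 3.45% of the other classes. After each cell was thinned to 8392 UMIs, leaving out shallower cells (87 of 658 naive and 264 of 1470 papain CD301blo cDC2s), the shares in CD301blo cDC2s were 24.4% and 7.52%. Droplets that carried T cell transcripts but lacked antibody data, held *H2-Oa* in 5.78% of 225 naive and 6.99% of 229 papain cases, at median depths of 7556 and 6983 UMIs and levels of 11.03 and 11.19 CPM. In the papain library that level lay above the 1.42 to 2.93 CPM of the classes other than CD301blo cDC2s, so these droplets are no floor for free RNA, and whether the low shares of the classes are background was not tested. *H2-Ob* was found in 0.568% to 2.13% of the cells of the papain classes and in 2.62% of the papain droplets, where it stood at 4.12 CPM. In naive cells *H2-Ob* was found in 12.6% of CD301blo cDC2s, 11.9% of cDC1s, 0.909% to 5.92% of the other classes and 6.67% of the droplets. The cDC1s had a median of 15806 UMIs, and after thinning *H2-Ob* was in 6.77% of cDC1s, 9.84% of CD301blo cDC2s and 7.81% of the 80 droplets left. B cells are the cells best known for H2-DO, and the 8 B cell markers summed to 99.9 CPM in naive CD301blo cDC2s and 15.1 to 55.0 CPM in the other naive classes, with 36.0 and 7.2 to 36.5 CPM in the papain library; all 8 were above 0 in naive CD301blo cDC2s. Without the cells holding a UMI of *Cd79a*, *Cd79b* or *Ms4a1*, *H2-Oa* was still present in 26.9% of naive CD301blo cDC2s.

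*Ciita* stood in naive cells at 78.4, 39.6, 29.6, 8.22 and 7.90 CPM in CD301blo, CD301bint and CD301bhi cDC2s, cDC1s and LCs, and in papain cells at 34.1, 9.53, 5.20, 4.56 and 2.34 CPM. The span between the highest and the lowest class was 9.92-fold in naive and 14.5-fold in papain cells. The intervals of cDC1s and LCs overlapped in both libraries, and in papain cells those of CD301bhi cDC2s and cDC1s did too. Cells with a *Ciita* UMI were 26.6% of naive CD301blo cDC2s and 17.7% of papain CD301blo cDC2s, against 1.33% of the naive T cell droplets and 0 of 229 papain ones, which allows a share of up to 1.31% by the limit of 3 counts.

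The comparison of papain with naive cells asks how the class II programme of each DC subset stood on day 1 after immunization. Every member was lower in papain than in naive cells in every class, in 50 of 50 ratios. In CD301blo cDC2s this direction depended on the naive cells of cluster 1.5. Without them 8 of the 10 members were higher in papain cells, as given further on. That alternative was chosen after the data were seen. It left out the highest naive cluster and kept all papain cells, the high clusters 2.4 and 2.7 included. Lists of markers of other cells moved in both directions. The 4 macrophage markers summed to 52.0 CPM in naive and 19.6 in papain CD301blo cDC2s and to 59.0 and 11.3 CPM in CD301bint cDC2s, but to 15.1 and 20.1 CPM in LCs, and the 5 T cell markers summed to 192 and 25.4 CPM in cDC1s. The 3 plasmacytoid DC markers were higher in papain cells in every class, at a summed 153 to 290.2 CPM in naive and 318 to 428 CPM in papain cells, through *Tcf4* and *Bst2*, while *Siglech* stood at 5.69 CPM or less in naive and 0.222 CPM or less in papain classes. When all cells with a UMI of *Cd3e* or *Trac*, or all with one of the B cell genes *Cd79a*, *Cd79b* and *Ms4a1*, were left out, the 50 ratios stayed below 0, between -2.94 and -0.07 and between -2.62 and -0.14. The part of macrophage or plasmacytoid DC RNA was not tested. In CD301blo cDC2s 8 of 10 members were at least 1.5-fold lower (background 13.3%), in CD301bint cDC2s 9 of the 9 members reaching 10 CPM (background 9.76%), in CD301bhi cDC2s 9 of 9 (background 7.96%), in cDC1s 7 of 9 (background 11.8%) and in LCs 7 of 8 (background 8.36%). No member was 1.5-fold higher in any class, where 10.3%, 10.0%, 9.41%, 9.35% and 13.5% of all genes were in the same order of classes. The median log2 ratio of the 10 members was -1.16 in CD301blo, -1.89 in CD301bint and -1.92 in CD301bhi cDC2s, -1.57 in cDC1s and -0.81 in LCs, while that of all genes tested lay between 0.01 and 0.09.

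On this scale *H2-Oa* lay furthest from 0 among the members in every class except CD301blo cDC2s, where *H2-Ob* did. These places of low genes depend on the pseudocount: with 10 CPM in place of 1, *H2-Oa* was furthest in CD301blo cDC2s alone (-1.67, against -1.48 for *H2-Ob*), and *H2-Ab1* in the other 4 classes (-1.25 to -1.98). Without cluster 1.5, *Ciita* (-1.61) lay further from 0 than *H2-Oa* (-1.51) in CD301bhi cDC2s. *H2-Oa* had log2 ratios of -2.20, -2.49, -2.32, -2.40 and -2.49 in the order of classes above, that is 4.61- to 5.63-fold lower levels. In LCs only 0.0396% of the genes tested, *H2-Oa* included, had a ratio no higher than that of *H2-Oa*. *H2-Ob* had a log2 ratio of -2.84 in CD301blo cDC2s, with 2.66 CPM in papain cells. *Ciita* had log2 ratios of -1.18, -1.95, -2.30, -0.73 and -1.41, and in cDC1s its counting intervals in the libraries overlapped (78 naive and 14 papain UMIs). H2-DM genes lay between -0.76 and -2.08 in all classes.

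Among the chains *H2-Ab1* was lower by more than *H2-Aa* and *H2-Eb1* in each class, with all cells. Its log2 ratios were -1.21, -1.89, -2.01, -1.51 and -1.29, against -0.57, -1.13, -1.27, -0.44 and -0.85 for *H2-Aa*. Without cluster 1.5, these chains were higher in papain CD301blo cDC2s (*H2-Ab1* 0.55, *H2-Aa* 0.48 and *H2-Eb1* 0.56). In CD301bint and CD301bhi cDC2s *H2-Ab1* (-0.68 and -1.30) was then still lower by more than the others. With all cells *Cd74* was the member nearest to 0 in all 3 kinds of cDC2s and in LCs, with log2 ratios of -0.54, -0.86, -1.02, -0.58 and -0.14. In LCs it stood at 2765 CPM in naive and 2501 in papain cells, and 32.5% of the genes tested, *Cd74* included, had a ratio no higher. Without cluster 1.5, *Cd74* was not the nearest in any kind of cDC2s. *Ciita* (0.26) was then nearer than *Cd74* (0.33) in CD301blo cDC2s. *H2-DMb1* was nearer in CD301bint (-0.24 against -0.42) and CD301bhi cDC2s (-0.72 against -0.79).

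**Figure D2:**
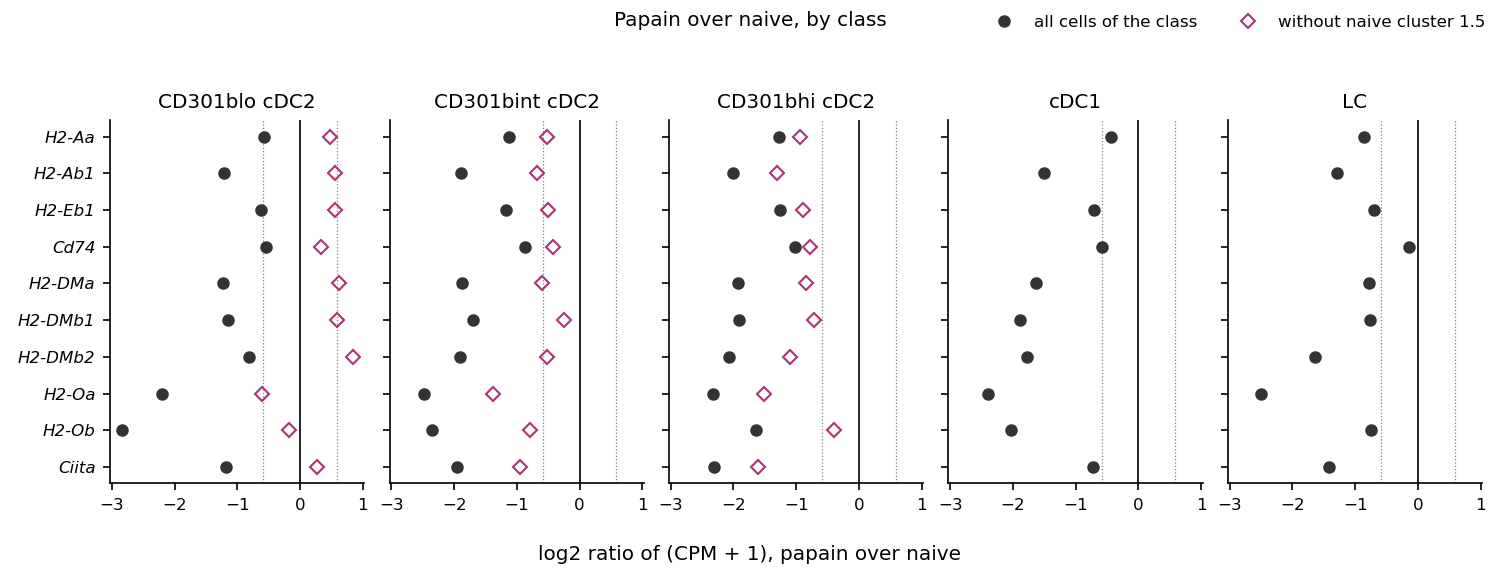
Log2 ratio of CPM + 1, papain over naive, for each of the 10 genes in the 5 antibody classes. Black dots use all cells of the class, open diamonds leave out the naive cells of cluster 1.5, and dotted lines mark a 1.5-fold difference; all black dots lie left of 0, and 8 of 10 diamonds of the CD301blo cDC2s lie right of it.

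A difference in the level of a class can come from its whole range of cells or from some of them, and the classes differed in this. The 4 abundant genes (*H2-Aa*, *H2-Ab1*, *H2-Eb1* and *Cd74*) were summed in each cell. In CD301bhi cDC2s the papain library was lower throughout, with 1585, 3469 and 7671 CPM at the 25th percentile, the median and the 75th percentile against 2946, 6957 and 19175 CPM in naive cells. CD301bint cDC2s gave 1513, 3508 and 8262 CPM against 2452, 5006 and 18595. In CD301blo cDC2s the median cell was not lower in the papain library (6913 CPM, 95% order-statistic interval 6131 to 8243) than in the naive library (6393, 5148 to 9023), and the 25th percentiles were 2032 and 1904 CPM. The libraries parted only above the median, with 24485 against 38055 CPM at the 75th percentile.

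LCs were the least varied class. Their 90th percentile was 7.27 times their 10th in naive and 11.1 times in papain cells, while in CD301blo cDC2s these ratios were 65.9 and 47.3. In LCs the median was 1741 CPM in papain and 2077 in naive cells, yet the 90th percentile was 6703 in papain and 5844 in naive cells. In cDC1s the medians were 2874 and 3634 CPM and the 90th percentiles 11103 and 18475 CPM.

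**Figure D3:**
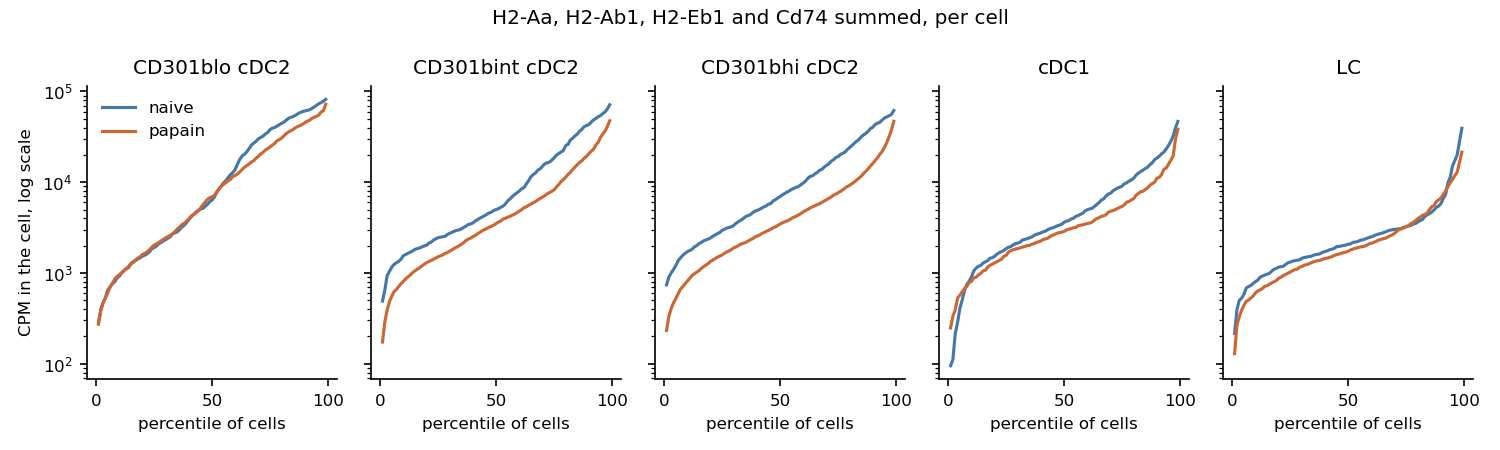
Summed level of *H2-Aa*, *H2-Ab1*, *H2-Eb1* and *Cd74* in single cells (CPM in the cell, log scale) at each percentile from 1 to 99 of the cells of a class, naive in blue and papain in orange. The curves of CD301blo cDC2s run together up to the median and part above it, and those of CD301bhi cDC2s are apart throughout.

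The authors' mRNA clusters of cDC2s, 7 naive and 9 papain ones, showed where the high cells lay. The clustering used the mRNA of these genes among all others, so the levels of clusters are a description. The naive cluster 1.5, with 246 cells or 12.2% of naive cDC2s, was highest for all 10 members. *H2-Aa* stood there at 10180 CPM and in the next cluster at 3493, *H2-Ab1* at 9317 and 1948, *Cd74* at 22808 and 9871, and *H2-DMa* at 703 and 80.7 CPM. *Ciita* stood at 189 CPM in cluster 1.5 and 41.9 in the next, *H2-Oa* at 131 and 21.6, and *H2-Ob* at 61.8 and 18.7. The members made up 5.39% of its UMIs, and its 10th and 90th percentiles of the 4 abundant genes were 31372 and 74796 CPM.

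Cluster 1.5 differed from other naive cDC2s in other markers as well. *Ccr7*, the receptor that guides DCs to lymph nodes, stood at 1389 CPM against 2754 to 5029 CPM in the other naive clusters, and the 4 migratory DC markers together at 2176 against 5072 to 14645 CPM. All 5 cDC2 markers were present, at a summed 866 against 82.7 to 373 CPM, among them *Mgl2* at 276 CPM against at most 33.3, and *Cd209a* at 257 against at most 21.2. The 4 macrophage markers summed to 200.3 CPM there and to 3.5 to 18.4 CPM in the other naive clusters, and the 8 B cell markers to 82.1 CPM against 0 to 564. Their part in the result was not tested.

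In the papain library clusters 2.4 and 2.7 stood out. *H2-Aa* reached 5446 CPM in cluster 2.4 (671 cells) and 3976 in cluster 2.7 (375 cells), against at most 1420 in the other 7 clusters. *Ciita* reached 59.2 and 51.9 CPM against at most 11.6, and *H2-DMb2* 112 and 102 against at most 34.1. *H2-Ob* was highest in cluster 2.9 (9.25 CPM), where the B cell markers summed to 57.0 CPM and the T cell markers to 94.7 CPM, and stood at 3.35 CPM in cluster 2.4. The B cell markers summed to 51.0 CPM in cluster 2.4, to 15.03 in cluster 2.7 and to 5.6 to 14.2 CPM in the other 6 clusters, and their part in the result was not tested. Unlike cluster 1.5, these clusters had *Ccr7* at 4332 and 3741 CPM, within the 711 to 4193 CPM of the others or above it, and *Mgl2* at 2.2 and 0.2 CPM.

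Over the clusters of both libraries *Ciita* varied with the genes it is known to control, less closely among the naive ones once cluster 1.5 was left out. Pearson's r of log2(CPM + 1) with *Ciita* over the 16 clusters lay between 0.782 (*H2-Ob*) and 0.950 (*H2-DMb2*), and was 0.887 for *H2-Aa* and 0.942 for *H2-Ab1*. *Ccr7* had r = -0.112 over all clusters, -0.757 over the 7 naive and 0.071 over the 9 papain clusters. The clusters of a library share that library and its depth. Within the naive library r was between 0.833 (*Cd74*) and 0.940 (*H2-DMb2*), and Spearman's rho between 0.393 (*Cd74*) and 0.964 (*H2-Ob*). Within the papain library r was between 0.606 (*H2-Ob*) and 0.962 (*H2-DMb2*), and rho between 0.600 (*H2-Aa*) and 0.933 (*H2-DMb1* and *H2-Oa*). Without cluster 1.5, left out after the data were seen, r over the remaining 6 naive clusters was between 0.418 (*Cd74*) and 0.886 (*H2-Ob*) and was 0.592 for *H2-Aa*, and that of *Ccr7* was -0.057. Spearman's rho was then 0.029 for *Cd74*, 0.314 for *H2-Eb1* and up to 0.943 for *H2-Ob*.

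Cells of cluster 1.5 were spread unevenly over the classes, and this bore on the comparison with papain. They were 21.7% of naive CD301blo cDC2s (143 of 658, 95% exact interval 18.6 to 25.1), 9.71% of CD301bint and 5.52% of CD301bhi cDC2s, and they carried 65.5%, 42.8% and 25.8% of the UMIs of the 4 abundant genes in these classes. An alternative chosen after the data were seen left them out. By this choice the highest naive cluster was removed while all papain cells were kept. The high papain clusters 2.4 and 2.7 thus stayed in. They were 35.9% and 12.9% of papain CD301blo cDC2s and carried 49.1% and 23.6% of the UMIs of these 4 genes there. With cluster 1.5 left out, the direction in CD301blo cDC2s turned. *H2-Aa* then stood at 2189 CPM in naive and 3049 in papain cells, *H2-Eb1* at 1909 and 2816, *H2-DMa* at 69.1 and 106, and *Ciita* at 28.3 and 34.1. Of the 10 members 8 were then higher in papain CD301blo cDC2s, 3 of them by at least 1.5-fold (*H2-DMa*, *H2-DMb1* and *H2-DMb2*; background 9.50%). *H2-Oa* was the exception that stayed 1.5-fold lower (19.7 and 12.6 CPM; background 8.88%), and *H2-Ob* stood at 3.14 and 2.66 CPM.

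In the other cDC2 classes the direction held without cluster 1.5. In CD301bhi cDC2s all 8 members reaching 10 CPM were still at least 1.5-fold lower in papain cells (background 6.80%), with *H2-Ab1* at 973 CPM in naive and 393 in papain cells and *Ciita* at 17.9 and 5.20 CPM. In CD301bint cDC2s 3 of the 8 reaching 10 CPM were (*H2-Ab1*, *H2-DMa* and *Ciita*; background 7.11%), and the median log2 ratio of the members was -0.56 where it was -0.92 in CD301bhi cDC2s and 0.51 in CD301blo cDC2s. Under both settings the median ratio was thus lowest in CD301bhi and highest in CD301blo cDC2s.

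**Figure D4:**
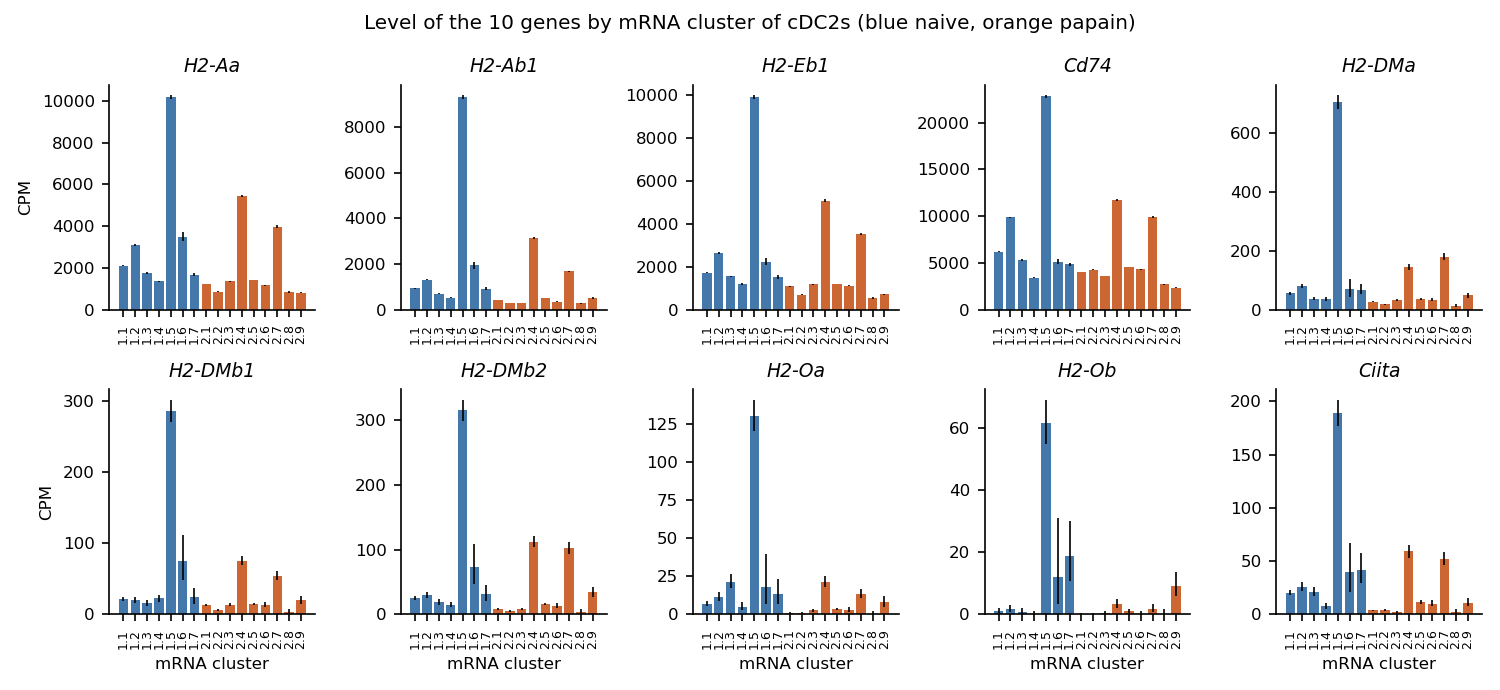
Level of each of the 10 genes (CPM, with 95% exact Poisson intervals) in the authors' mRNA clusters of cDC2s, 1.1 to 1.7 of the naive (blue) and 2.1 to 2.9 of the papain library (orange). Cluster 1.5 is the highest bar for all 10 genes, and clusters 2.4 and 2.7 are the highest of the papain library for all but *H2-Ob*.

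The MHC_II antibody, which binds I-A and I-E, gave the protein on the same cells. As C57BL/6 mice make no I-E α chain, this protein is I-A here. The deposited value is the natural log of 1 plus the ratio of the antibody's count + 1 to the geometric mean over the 12 antibodies of the cell, so it also depends on the other antibodies. In naive cells its median was 5.51 in CD301bhi, 5.48 in CD301bint and 5.42 in CD301blo cDC2s, 5.12 in LCs and 4.73 in cDC1s. In papain cells it was 5.20 in CD301blo, 5.03 in CD301bint and 5.02 in CD301bhi cDC2s, 4.14 in LCs and 3.97 in cDC1s. Among cDC2s the CD301blo cells were thus lowest in the naive library, where neighbouring intervals overlapped, and highest in the papain library, where theirs (5.18 to 5.24) lay apart. The spread between cells was wider than these differences (SD 0.427 to 0.533 in naive and 0.443 to 0.449 in papain cDC2s).

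By the antibody value, protein and mRNA ranked the classes differently. LCs had the lowest summed level of the 4 abundant genes of all classes in both libraries. That sum also holds *H2-Eb1* and *Cd74*, which are not chains of I-A. LCs were lowest as well for *H2-Aa* (960 CPM in naive and 532 in papain cells) and *H2-Ab1* (442 and 180 CPM). For papain *H2-Ab1* their interval overlapped that of cDC1s. Yet their antibody median lay above that of cDC1s in both, by intervals that did not overlap. As a share of all antibody counts of the cell, MHC_II was 79.3% in LCs and 81.3% in cDC1s of the naive library and 55.0% and 61.1% in the papain library, so on this measure the order of these 2 classes was the reverse. Among papain cDC2s the shares were 89.7% in CD301blo, 87.7% in CD301bint and 83.2% in CD301bhi cells, and by share the 5 papain classes stood in the order of their summed 4 abundant genes (14705, 7645, 6799, 5733 and 3663 CPM). In naive cells the share was 92.2% in CD301bint, 90.5% in CD301blo and 89.6% in CD301bhi cDC2s, so there the order differed from that of the mRNA in the first places alone. The antibody value was lower in papain cells in every class, with differences of medians (papain minus naive) of -0.213 in CD301blo, -0.455 in CD301bint and -0.487 in CD301bhi cDC2s, -0.760 in cDC1s and -0.978 in LCs. The antibody counts of a cell were lower in the papain library too, with class medians of 2473 to 7670 against 6213 to 10701, and their part in the result was not tested. MHC_II was the antibody with the most counts in 93.3% of papain LCs and in 99.7% to 100% of the cells of the other classes.

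The mRNA clusters separated protein from mRNA further. Cluster 1.5, with 52185 CPM of the 4 abundant genes, had an antibody median of 5.02 (95% interval 4.93 to 5.07), below 5 of the other 6 naive clusters. Cluster 1.3, with 9289 CPM, had the highest antibody median, 5.79 (5.74 to 5.83). In the papain library cluster 2.4, with 25369 CPM, and cluster 2.2, with 6115 CPM, both had a median of 5.32 (5.29 to 5.35 and 5.30 to 5.34).

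Within a class the relation of antibody and mRNA in the same cell changed with the measure of the antibody. Spearman's rho between the value and the summed 4 genes was between -0.204 and 0.163 over the naive classes and between -0.069 and 0.176 over the papain classes, with 235 to 2893 cells each. With the antibody's counts in place of its value rho was between -0.253 and 0.421 and the sign turned in 3 of these 10 groups, and with its share of antibody counts rho was between -0.329 and 0.226. In papain LCs rho was 0.017 with the value, 0.421 with the counts and 0.222 with the share, and there the summed 4 genes had rho = 0.421 with the cell's UMIs. In naive cDC1s the -0.204 became -0.396 without the cells holding a T or B cell UMI. No relation is read from these values. By contrast, the mRNAs ran together from cell to cell: the 6 pairs of the abundant genes had rho between 0.825 and 0.928 in naive and between 0.828 and 0.947 in papain CD301blo cDC2s, and between 0.299 and 0.515 in naive LCs. Cells share their depth, and pairs of abundant genes are measured with less counting noise than rare ones.

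**Figure D5:**
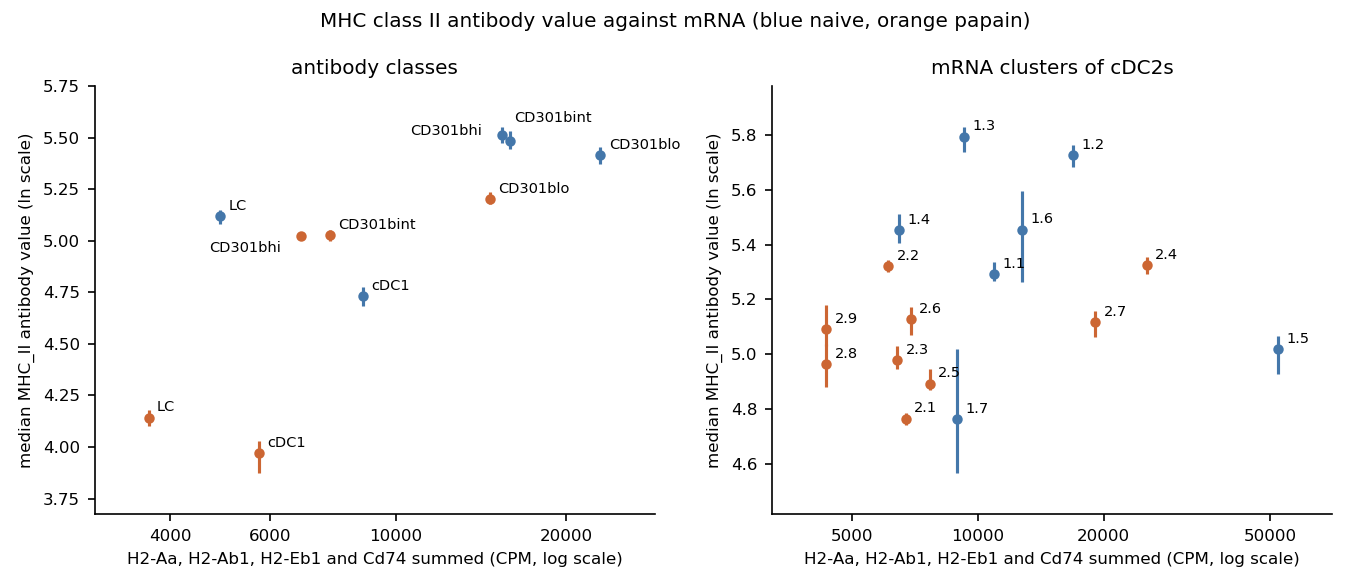
Median MHC_II antibody value (natural log scale, with 95% order-statistic intervals) against the summed level of *H2-Aa*, *H2-Ab1*, *H2-Eb1* and *Cd74* (CPM, log scale) for antibody classes (left) and mRNA clusters of cDC2s (right), naive in blue and papain in orange. LCs lie above cDC1s in antibody value but left of them in mRNA, and cluster 1.5 combines the highest mRNA, 52185 CPM, with a value of 5.02.

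Most of the other 19 genes of the pathway did not share the lower levels of the members. In CD301blo cDC2s 3 of the 16 reaching 10 CPM were at least 1.5-fold higher in papain cells and 1 was lower, in CD301bint cDC2s 1 and 2 of 16, in CD301bhi cDC2s 2 and 1 of 15, in cDC1s 2 and 1 of 15 and in LCs 2 and 2 of 16. These shares were near the background given above for each direction. Values given for all classes pool the classes, whose shares differed between the libraries. In that pool cDC1s were 578 of 3042 naive and 235 of 7306 papain cells. Among 10 transcription genes, *Rfx5*, which encodes a subunit of the RFX complex, stood at 5.92 CPM in naive and 5.60 in papain cells of all classes, and *Nfya*, which encodes a subunit of NF-Y, at 79.4 and 74.9 CPM. *Rfxank*, another RFX subunit, was the only one of the 10 past the fold in any class, at 9.81 CPM in naive and 20.1 in papain CD301bhi cDC2s and 11.9 and 19.7 CPM in CD301blo cDC2s.

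Genes for enzymes that process the invariant chain or antigen differed in direction. *Ctss*, the main such protease in DCs, stood at 548 CPM in naive and 590 in papain cells of all classes. By class it was higher in papain CD301bhi cDC2s (584 and 619 CPM) and cDC1s (388 and 577 CPM). It was slightly lower in papain CD301blo (592 and 585 CPM) and CD301bint cDC2s (601 and 582 CPM) and LCs (573 and 529 CPM). In cells of all classes *Lgmn*, an asparaginyl endopeptidase, stood at 102 and 189 CPM, *Ctsh* at 598 and 915 CPM, and *Ctsl* at 12.4 and 4.71 CPM. *Ifi30*, the thiol reductase GILT, stood at 624 CPM in naive and 1599 in papain cDC1s.

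Of the genes of surface turnover, *March1*, the ubiquitin ligase that removes class II from the surface, was below 10 CPM in every class. In CD301blo, CD301bint and CD301bhi cDC2s it stood at 8.45, 4.84 and 3.24 CPM in naive and 0.665, 0.170 and 0.178 CPM in papain cells. In cDC1s and LCs it stood at 1.37 and 0.376 CPM in naive and 1.30 and 0.327 CPM in papain cells. It stood at 31.3 CPM in cluster 1.5 and at 6.6 CPM or less in the other 15 clusters. *Cd83*, which opposes *March1*, stood at 1620 CPM in naive and 1365 in papain cells of all classes. It was lower in papain CD301blo (1511 and 1197 CPM), CD301bint (1792 and 1316 CPM) and CD301bhi cDC2s (2121 and 1491 CPM). In LCs it was lower too (1930 and 1343 CPM), but in cDC1s it was higher (762 and 859 CPM). *H2-Eb2*, a second I-E β chain gene whose reads may be split with *H2-Eb1*, stood in naive cells at 129, 122, 144, 96.2 and 56.4 CPM and in papain cells at 118, 57.0, 65.0, 57.6 and 33.7 CPM in CD301blo, CD301bint and CD301bhi cDC2s, cDC1s and LCs.

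*H2-Eb2* was also the gene outside the members whose pattern was most like theirs. Over the 10 groups of class and library, Pearson's r between its log2(CPM + 1) and the mean of the 4 abundant genes was 0.951, among 3279 genes with at least 50 CPM in some group. Others among the most alike were *Rps24* (0.948), a ribosomal protein gene, *Gm10320* (0.945), a predicted gene, and *Rps24-ps3* (0.926), a pseudogene whose reads cannot be kept apart from those of *Rps24* with certainty. *Rps24* varied much less, between 2698 and 4375 CPM over the groups. By Spearman's rho *Rps24* ranked 1 and *H2-Eb2* 16. Of the members themselves, *H2-DMa* had r = 0.992 and *Ciita* 0.976 with the 4 abundant genes, and *H2-Oa* had 0.781.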

How the data were processed

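Cells of both libraries were processed by the authors with the Chromium 3' v3 kit, Cell Ranger 3.0.1 (mm10) and Partek. The authors deposited mRNA values as log2 of CPM + 1 per cell and gene. They deposited antibody values on a natural log scale, beside each cell's total antibody count. UMIs were recovered from the log2 values: 100% of 10855295 naive and 25513509 papain values up to 50 UMIs were whole within 0.02 UMIs. UMIs of each group were summed and scaled to 1e+06. The members and lists were chosen with earlier results of these data known. All 10 members are named, along with the pathway genes and the 5 non-member genes with the highest r, of which 1 is not reported here. No test was run, since each condition has 1 library; differences are described by a fold of 1.5 on CPM + 1 among genes that reached 10 CPM on the higher side. The scripts were tested on simulated data. Doublets were not called or removed here. The alternatives changed the pseudocount (10 CPM), scaling, centring, averaging, fold (2) and cells. Python 3.11.15, numpy 2.4.6, pandas 2.3.3 and scipy 1.17.1 were used.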

Additional observations from a re-analysis of the deposited data

Results flagged for a closer look

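Cells without antibody data entered none of the comparisons of classes, yet the abundant members were present in them. In 429 naive cells without antibody data *H2-Aa*, *H2-Ab1*, *H2-Eb1* and *Cd74* summed to 7818 CPM, and in 290 such papain cells to 3066 CPM. The median cell was far lower, at 485 CPM in naive and 133 CPM in papain cells. The 5 T cell markers summed to 839 and 2083 CPM in these cells and the 8 B cell markers to 226 and 277 CPM, and their part in the result was not tested.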

How the results depend on the processing

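Across the alternatives 372 of 380 ratios of members between papain and naive cells stayed negative. The other 8 turned positive in CD301blo cDC2s without naive cluster 1.5: *H2-Aa* 0.48, *H2-Ab1* 0.55, *H2-Eb1* 0.56, *Cd74* 0.33, *H2-DMa* 0.62, *H2-DMb1* 0.59, *H2-DMb2* 0.84 and *Ciita* 0.26 (log2). The members at least 1.5-fold lower, counting those under 10 CPM too, were then 1 of 10 in CD301blo and 5 of 10 in CD301bint cDC2s, and 3 were higher in CD301blo cDC2s. Against the other naive classes, 3 were then higher in CD301blo cDC2s, 1 lower in CD301bint cDC2s, and 2 lower and 3 higher in cDC1s. In LCs 5 members were lower in papain cells with a pseudocount of 10 CPM and 4 with a fold of 2, where 9 were lower by the measure of the text, with the same count. Against the other classes of the library, a fold of 2 left 4 lower members in naive cDC1s and 6 in papain LCs. With the mean over cells, 8 members were lower in papain cDC1s and 2 in papain CD301bint cDC2s. The 1 member higher in papain cDC1s (*H2-Ob*, 6 UMIs) became 0 with that mean, with a pseudocount of 10 CPM and with a fold of 2. With antibody counts, rho turned to 0.228 in naive cDC1s, 0.102 in papain cDC1s and -0.218 in papain CD301blo cDC2s. With all cells that have antibody values the median in naive LCs was 5.07. The causes were not tested. Cluster 1.5, the highest naive cluster for all 10 members, was left out after the data were seen. No paired analysis was possible because each condition has 1 library and no replicate numbers were given. Depth limits *H2-Ob* and *Ciita* in LCs and papain cDC1s, where 5 to 43 UMIs stand behind each value.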
